A study of Mus musculus with 6 samples.

Results

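Potassium channel genes were examined in wire-injured mouse carotid arteries as all genes whose symbol matches Kcn, further letters and a number. The pattern found 167 probe sets of 84 genes among the 18194 genes measured, 81 of them protein coding. The other 3 are long non-coding RNAs (Kcnq1ot1, Kcnmb4os1 and Kcnmb4os2) that match by symbol and encode no channel protein. Of the 97 genes with such symbols in the RefSeq table, 13 were not analysed here. Arteries of IRF4 KO mice, which lack the transcription factor IRF4 in all tissues, were compared with arteries of WT mice, with 3 arrays per genotype. Both genotypes had received the wire injury and were sampled 14 days later, so there was no uninjured control, and each array pooled 3 to 5 vessels and used 400 ng of total RNA. The deleted part of Irf4, the strain, the sex and the age are not stated in the labels. Where nothing says that pools of one genotype came from separate operations, p-values measure the spread between these pools.

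Potassium channels let potassium leave the cell and so hold the membrane negative. In arterial smooth muscle a more negative membrane closes voltage-gated calcium channels and relaxes the vessel. The work is shared by large-conductance calcium-activated (BK) channels, voltage-gated (Kv) channels, inward rectifiers including ATP-sensitive channels, and two-pore domain channels. Smooth muscle that leaves the contractile state is known to exchange BK channels for the intermediate-conductance channel encoded by Kcnn4, which immune cells also use.

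Across the 84 genes no member passed the test between genotypes. With limma, a linear model whose error is moderated across all genes, 0 of 84 members and 0 of 18194 genes (0%) had a Benjamini-Hochberg adjusted p under 0.05. At an unadjusted p under 0.05 there were 0 members, against 271 of all genes (1.49%). The smallest adjusted p among the members was 0.999. The brightest probe sets, in falling order, were those of Kcnab1, Kcnmb1, Kcnj11, Kcne4, Kcnh2, Kcnn4, Kcnt2, Kcnma1 and Kcnj8. IRF4 KO 1 and WT 3, an array of each genotype, lay outside the range of the other 4 arrays in 43 of the 84 members (51.2%, against 37.2% of all genes).

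Before the values, 3 stretches of promoter show the sequence in front of Kcnab1 and Kcnmb1, which had the 2 brightest probe sets. IRF proteins bind repeats of GAAA, so GAAANNGAAA and the composite GGAANNGAAA, at which ETS proteins and IRF4 bind together, were searched on both strands of the 250 bases before each RefSeq start (GRCm38.p6). The CArG box, the site of serum response factor in smooth muscle genes, was searched by the same means. Capitals mark matches. The lines are the most upstream and the most downstream start of Kcnab1 at chr3:64948962-64949211 and chr3:65187853-65188102, and the start of Kcnmb1 at chr11:33962763-33963012, all on the plus strand.
Kcnab1, upstream start: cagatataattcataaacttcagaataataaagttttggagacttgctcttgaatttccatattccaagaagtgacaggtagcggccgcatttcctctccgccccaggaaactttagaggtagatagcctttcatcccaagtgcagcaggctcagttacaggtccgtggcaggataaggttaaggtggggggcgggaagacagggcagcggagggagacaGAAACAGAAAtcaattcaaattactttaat
Kcnab1, downstream start: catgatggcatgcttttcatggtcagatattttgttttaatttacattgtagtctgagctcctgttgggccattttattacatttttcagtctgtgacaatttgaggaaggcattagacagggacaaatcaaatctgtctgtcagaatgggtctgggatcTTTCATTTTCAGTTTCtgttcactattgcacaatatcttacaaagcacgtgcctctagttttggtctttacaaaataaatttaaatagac
Kcnmb1: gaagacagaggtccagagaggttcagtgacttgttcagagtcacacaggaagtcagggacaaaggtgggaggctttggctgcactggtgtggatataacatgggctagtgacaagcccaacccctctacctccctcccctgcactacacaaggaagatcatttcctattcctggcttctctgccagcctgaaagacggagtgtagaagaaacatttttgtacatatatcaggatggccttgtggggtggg

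The match in front of the upstream Kcnab1 start lay 30 to 21 bases before it on the plus strand. The downstream start had 2 overlapping matches on the minus strand, between 90 and 75 bases before it. Neither the middle Kcnab1 start nor Kcnmb1 had a match to any of the 3 motifs. Promoters of 64 of the 84 members were in the table, with 89 starts. GAAANNGAAA occurred at 6 of these starts (6.74%), in front of Kcna7, Kcnab1, Kcnc2 and Kcnj16, against 2.98% of the 32851 starts of all genes. GGAANNGAAA occurred at 1 member start (1.12%), that of Kcnn1, against 2.30% of all starts, and the CArG box at 0 member starts, against 1.47%. These matches describe letters and not binding, which was not measured.

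The arrays themselves were read next. All 10 smooth muscle markers, among them Acta2 and Myh11, lay above the level of olfactory receptor genes, which an artery is mostly not expected to express. That level was the 95th percentile of the means of 39 such genes, 4.21 on the log2 scale. Irf4 read 3.27, 3.75 and 3.70 in IRF4 KO 1, 2 and 3, against 3.90, 3.64 and 3.38 in WT 1, 2 and 3, a change of -0.065 (SE 0.22), and lay below that level in all 6 arrays, so it did not check the genotype labels. IRF4 KO 1 and WT 3 stood apart. Their poly-A spike-in controls, bacterial RNAs mixed in ahead of labelling, averaged 5.14 and 4.93, against 7.35 to 9.26 in the other 4 arrays. The mean level of 10 macrophage markers was 8.28 in IRF4 KO 1 and 7.20 in WT 3, against 4.42 to 5.21 elsewhere. Of those 10 markers only Itgam averaged below the olfactory receptor level. The cartilage markers, 5 of 9 above that level (not Col9a2, Matn1, Hapln1 and Col11a2), averaged 7.29 and 6.98 in IRF4 KO 1 and WT 3 and 3.62 to 4.01 elsewhere. The smooth muscle markers averaged 10.33 and 10.18 in the same arrays and 10.29 to 10.85 elsewhere. Between genotypes 3 of those 10, chosen here after their values were seen, did not overlap. Acta2 read 13.84 to 13.92 in IRF4 KO and 12.62 to 12.84 in WT arrays, Tagln 13.18 to 13.30 in IRF4 KO and 12.08 to 12.27 in WT arrays, and Smtn 10.80 to 10.86 in IRF4 KO and 9.68 to 9.81 in WT arrays. Each had an adjusted limma p of 0.252, and their part in the values of smooth muscle channel genes was not tested. The 3' minus 5' signal of Gapdh, which grows as RNA is degraded, was 1.52, 2.24 and 1.78 in IRF4 KO 1, 2 and 3, against 3.35, 1.59 and 3.36 in WT 1, 2 and 3. That of Actb was 1.43, 1.997 and 1.64 in IRF4 KO 1, 2 and 3, against 3.12, 1.54 and 2.12 in WT 1, 2 and 3. WT 1 was thus high on both genes, while WT 3 stood well apart on Gapdh only. In such bulk tissue fewer cells of a type and less RNA per cell cannot be told apart.

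Of the 84 members, 34 (40.5%) had a mean above the olfactory receptor level, against 59.8% of all genes. Kcnip3 at 4.23 was the last above it and Kcnj4 at 4.16 the first below. Only 19 members (22.6%) lay above the median of all genes, 4.89. The order of members is one of probe set brightness, which also depends on the probes, and not one of transcript number.

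**Figure D1:**
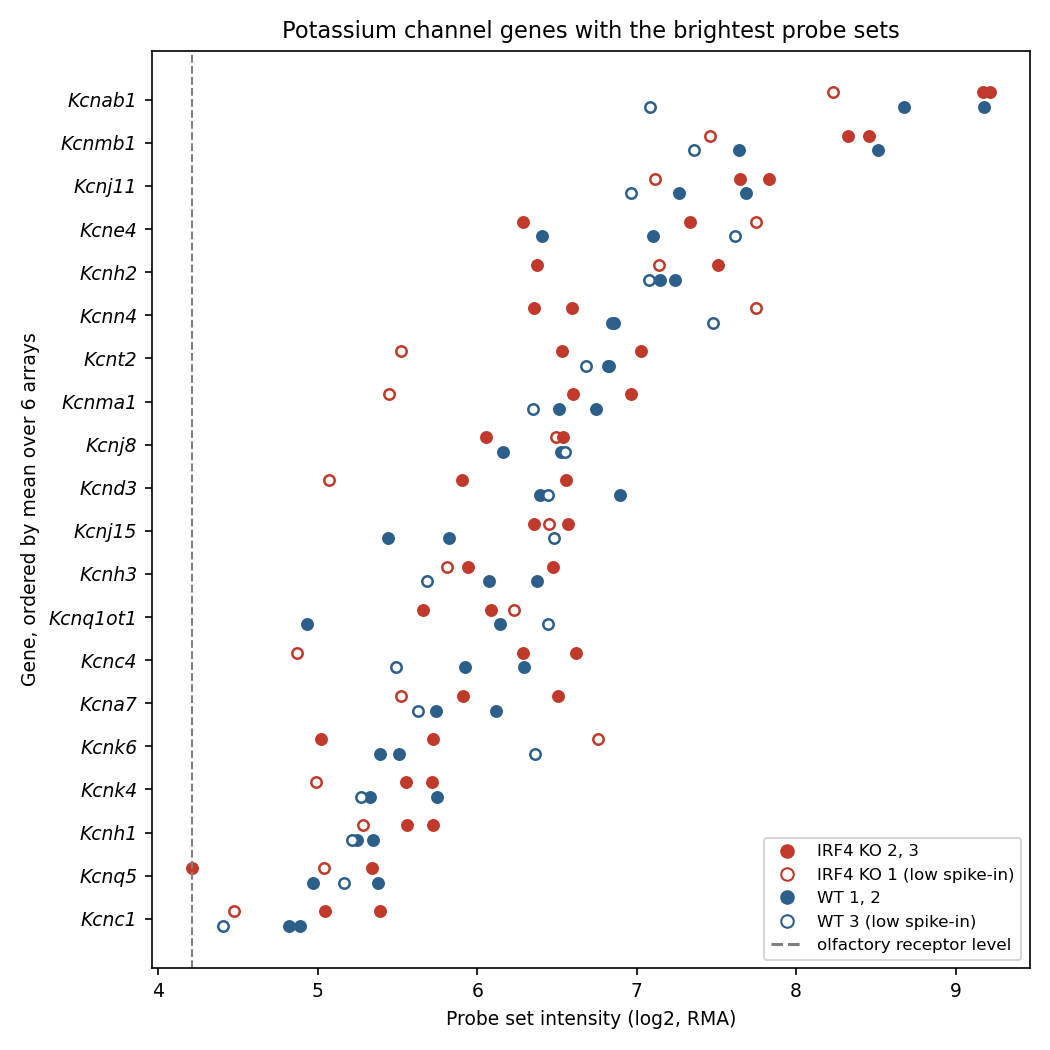
Log2 probe set intensity (x axis) of the 20 potassium channel genes with the brightest probe sets (rows), with 1 point per array. IRF4 KO arrays are red and drawn above WT arrays, which are blue; open points are IRF4 KO 1 and WT 3, the arrays with low spike-in controls, and the dashed line is the olfactory receptor level of 4.21. The genotypes overlap in all 20 rows.

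BK channels are built from the pore-forming protein of Kcnma1 and beta subunits that set its calcium sensitivity. Kcnma1 read 5.45, 6.97 and 6.60 in IRF4 KO 1, 2 and 3, against 6.52, 6.75 and 6.35 in WT 1, 2 and 3. IRF4 KO 1 gave the lowest value and the genotypes overlapped. The change was -0.20 (SE 0.37), with a 95% interval of -1.04 to 0.65. It was -0.90 between IRF4 KO 1 and WT 3 and 0.15 between the means of the other arrays, and without IRF4 KO 1 it turned to 0.25. The 5 Kcnma1 probe sets had differences between -0.20 and 0.037.

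Kcnmb1, the beta subunit typical of smooth muscle, read 7.46, 8.33 and 8.46 in IRF4 KO 1, 2 and 3, against 7.64, 8.51 and 7.36 in WT 1, 2 and 3. IRF4 KO 1 and WT 3 were the 2 lowest arrays, and the genotypes overlapped. Its change was 0.24 (SE 0.37), and its second probe set gave 0.34. The BK beta subunit genes Kcnmb2 and Kcnmb4 had dimmer probe sets. Kcnmb2 read 4.49, 4.83 and 5.13 in IRF4 KO arteries and 5.09, 4.65 and 4.52 in WT arteries, and Kcnmb4 read 3.94, 4.32 and 4.65 in IRF4 KO arteries and 4.77, 4.29 and 4.05 in WT arteries. Neither differed by more than the spread between arrays, with changes of 0.061 and -0.067.

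Kcnn4 encodes the intermediate-conductance calcium-activated channel of proliferating smooth muscle, red cells and leukocytes. It read 7.75, 6.36 and 6.60 in IRF4 KO 1, 2 and 3, against 6.84, 6.86 and 7.48 in WT 1, 2 and 3. The 2 arrays low in spike-in controls were the highest, and the genotypes overlapped. The change was -0.16 (SE 0.37), and the second Kcnn4 probe set went the other way, with 0.58. The mean of the macrophage markers, and 8 of the 10 (not Itgam and Fcgr1), were highest in the same 2 arrays, and their part in the Kcnn4 values was not tested. Kcnn3, a small-conductance channel gene known from endothelium, read between 3.13 and 3.49 over all 6 arrays, below the olfactory receptor level, with a change of 0.045.

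Kcnt2, which encodes a sodium-activated channel, read 5.52, 7.03 and 6.53 in IRF4 KO 1, 2 and 3, against 6.82, 6.83 and 6.68 in WT 1, 2 and 3. The value of IRF4 KO 1 stood more than 1 unit below the next array. The change of -0.42 (SE 0.35) was -1.16 between IRF4 KO 1 and WT 3 and -0.042 between the other arrays. The gene had a single probe set.

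Among the voltage-gated group, Kcnab1 had the brightest probe set of all members. It encodes a cytosolic beta subunit that speeds the inactivation of Kv1 channels. Kcnab1 read 8.23, 9.22 and 9.17 in IRF4 KO 1, 2 and 3, against 8.68, 9.18 and 7.09 in WT 1, 2 and 3. WT 3 was lowest and IRF4 KO 1 next lowest, while the other 4 arrays lay between 8.68 and 9.22. The change was 0.56 (SE 0.52), the largest positive one among the members, with a 95% interval of -0.64 to 1.75. It was 1.14 between IRF4 KO 1 and WT 3 and 0.27 between the other arrays. Without WT 3 it turned to -0.055. The second probe set gave 0.62. A model with the spike-in groups of arrays as a block gave an adjusted limma p of 0.995.

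The Kv1 pore genes known from arteries had dim probe sets. Kcna6 averaged 4.19 ± 0.36 in IRF4 KO and 4.02 ± 0.24 in WT arteries (SD, n = 3 each) and Kcna2 4.06 ± 0.48 in IRF4 KO and 3.76 ± 0.23 in WT arteries. Kcna3 averaged 3.24 ± 0.38 in IRF4 KO and 3.27 ± 0.49 in WT arteries, and Kcna5 2.37 ± 0.25 in IRF4 KO and 2.46 ± 0.27 in WT arteries. All 4 lay below the olfactory receptor level, so their differences are given as values only. Kcnab2, the beta subunit gene related to Kcnab1, averaged 3.40 ± 0.20 in IRF4 KO and 3.33 ± 0.15 in WT arteries.

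Transient, or A-type, potassium current is carried by Kv4 channels, for which Kcnd3 encodes a pore subunit. Kcnd3 read 5.07, 6.56 and 5.90 in IRF4 KO 1, 2 and 3, against 6.39, 6.90 and 6.45 in WT 1, 2 and 3. IRF4 KO 1 and 3 lay below every WT array, while IRF4 KO 2 lay above WT 1 and WT 3. Its change of -0.74 (SE 0.36) was the most negative among the members. It had their smallest unadjusted p, 0.0748 by the limma model across all genes, with an adjusted p of 0.999. The 95% interval was -1.56 to 0.092. The difference was -1.38 between IRF4 KO 1 and WT 3 and -0.42 between the other arrays. The other 3 Kcnd3 probe sets, all dimmer, gave differences between -0.088 and 0.18.

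Partners of Kv4 channels were read beside Kcnd3. Kcnip4, which encodes a cytosolic calcium-binding partner, read 3.56, 4.87 and 4.61 in IRF4 KO arteries and 4.55, 5.07 and 4.53 in WT arteries. IRF4 KO 1 was the lowest array by almost a whole log2 unit, and the change was -0.37 (SE 0.35). The peptidase-like partner gene Dpp10, no Kcn gene but part of the same complex, read 3.35, 4.14 and 4.28 in IRF4 KO 1, 2 and 3, against 5.24, 5.73 and 4.75 in WT 1, 2 and 3. The genotypes did not overlap, with a fitted difference of -1.32 (SE 0.33) and an adjusted limma p of 0.999. The IRF4 KO mean, 3.93, lay below the olfactory receptor level, so the size of the difference is not read further. To complete the family, changes were 0.22 for Kcnip1, -0.069 for Kcnip2, 0.30 for Kcnip3, 0.01 for Kcnd1, -0.029 for Kcnd2 and 0.26 for Dpp6. Kcnip1, Kcnip2 and Kcnd2 averaged below the olfactory receptor level, as did Dpp6 in WT arteries (4.06). Their changes are given as values only.

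Other bright voltage-gated members included channels of the ether-a-go-go family, a Kv3 channel and the Kv1 pore gene Kcna7. Kcna7 read 5.52, 5.91 and 6.51 in IRF4 KO arteries and 6.12, 5.74 and 5.63 in WT arteries, with a difference of 0.15 (SE 0.28) and overlapping genotypes. Kcnh2, whose channel repolarises the heart, read 7.14, 7.51 and 6.37 in IRF4 KO arteries and 7.24, 7.15 and 7.08 in WT arteries, and IRF4 KO 3 was the lowest array. Kcnh3, best known from neurons, read 5.81, 5.94 and 6.48 in IRF4 KO arteries and 6.37, 6.08 and 5.69 in WT arteries. Kcnh1 was read on a dimmer probe set, at 5.52 ± 0.22 in IRF4 KO and 5.27 ± 0.07 in WT arteries (SD, n = 3 each). Changes were -0.15 (SE 0.29), 0.031 (SE 0.26) and 0.25 (SE 0.19). Kcnc4, a Kv3 pore gene, read 4.87, 6.62 and 6.28 in IRF4 KO arteries and 6.29, 5.92 and 5.49 in WT arteries, with IRF4 KO 1 and WT 3 lowest and a change of 0.023.

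Kv7 channels relax arteries, and Kcne4 encodes a single-pass subunit that modifies them. Kcne4 read 7.75, 7.34 and 6.29 in IRF4 KO 1, 2 and 3, against 6.41, 7.10 and 7.61 in WT 1, 2 and 3. IRF4 KO 1 and WT 3 were the 2 highest arrays, and the change of 0.082 (SE 0.42) was far below the spread between arrays. The pore gene Kcnq5 read 5.04, 5.34 and 4.21 in IRF4 KO arteries and 4.97, 5.38 and 5.17 in WT arteries, and IRF4 KO 3 was lowest. Its 3 probe sets gave -0.31, -0.76 and -0.20. Kcnq1, the Kv7 pore best known from heart and inner ear, read between 4.23 and 4.59, with a change of -0.04.

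**Figure D2:**
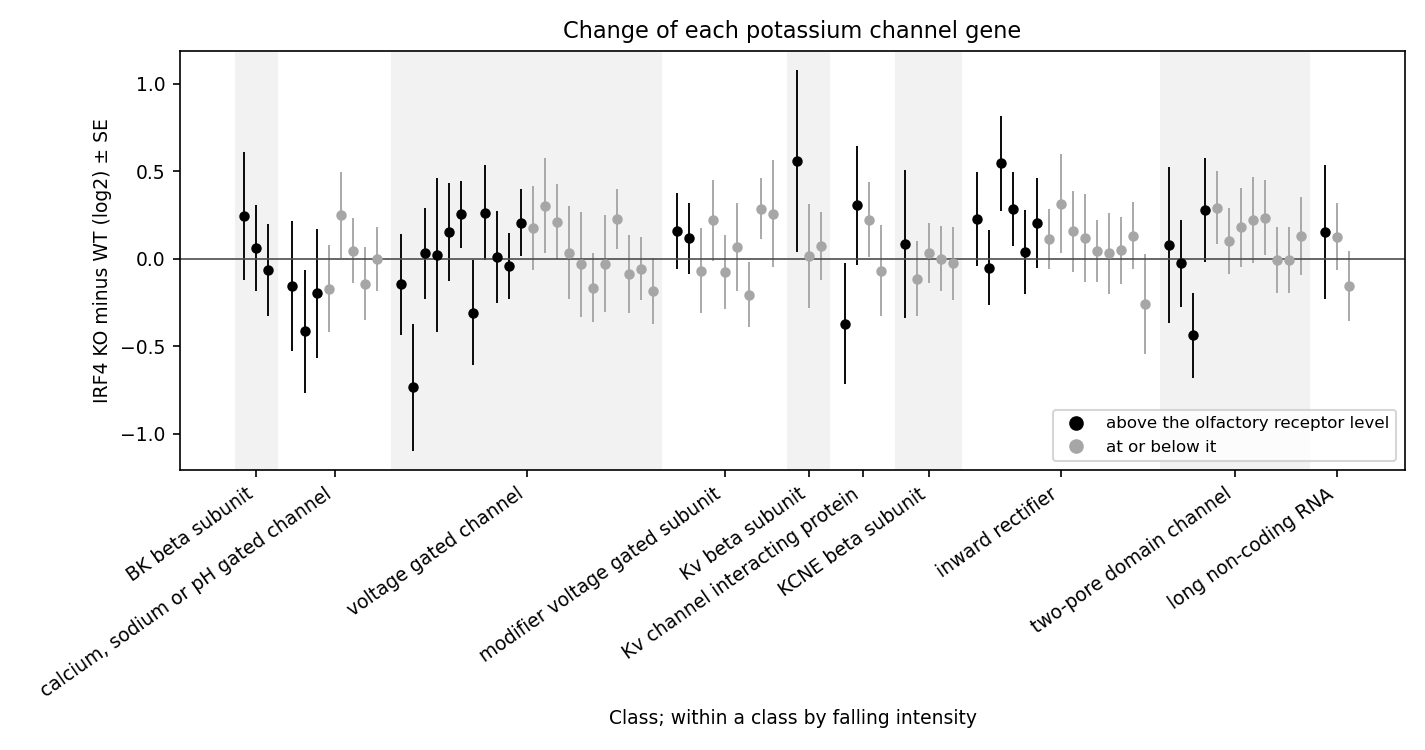
Log2 change, IRF4 KO minus WT, with its limma standard error (y axis) for each of the 84 genes, grouped by class and ordered within a class by falling intensity (x axis). Black points are the 34 genes above the olfactory receptor level and grey points the other 50. Changes lie between -0.74 for Kcnd3 and 0.56 for Kcnab1.

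Inward rectifiers pass potassium more easily into the cell than out of it. The ATP-sensitive channels among them have pores encoded by Kcnj8, the usual vascular form, and Kcnj11, best known from pancreatic beta cells and heart. Kcnj11 read 7.12, 7.65 and 7.83 in IRF4 KO 1, 2 and 3, against 7.69, 7.26 and 6.97 in WT 1, 2 and 3. Its change was 0.23 (SE 0.27), and IRF4 KO 1 and WT 3 were the 2 lowest arrays. The second Kcnj11 probe set averaged only 2.89, below the olfactory receptor level, and gave 0.15, so the bright level rests on 1 probe set. Kcnj8 read 6.50, 6.54 and 6.06 in IRF4 KO 1, 2 and 3, against 6.16, 6.53 and 6.55 in WT 1, 2 and 3. The genotypes overlapped, and the change was -0.051 (SE 0.22), with a 95% interval of -0.55 to 0.45.

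Kcnj15, which encodes Kir4.2, showed its lowest values in WT 1 and WT 2. It read 6.45, 6.57 and 6.35 in IRF4 KO 1, 2 and 3, against 5.82, 5.44 and 6.48 in WT 1, 2 and 3. All IRF4 KO arrays lay above WT 1 and WT 2, and WT 3 lay among them. The change was 0.54 (SE 0.27), and the limma model gave it an unadjusted p of 0.0808 and an adjusted p of 0.999. The other 2 probe sets gave 0.31 and 0.10. The difference was -0.033 between IRF4 KO 1 and WT 3. Between the means of the other arrays it was 0.83, with an unadjusted limma p of 0.00849 and an adjusted p of 0.935 over those 4 arrays. Of all genes, 3.87% had an unadjusted p under 0.05 over those arrays, and of the members 1 of 84 did.

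Kcnj2, the classical strong inward rectifier of arteries and heart, averaged 1.98 ± 0.36 in IRF4 KO and 2.24 ± 0.45 in WT arteries (SD, n = 3 each), below the olfactory receptor level. Kcnj6, a G-protein-gated channel gene, averaged 4.65 ± 0.25 in IRF4 KO and 4.36 ± 0.21 in WT arteries. Kcnj1, the renal outer medullary channel gene, averaged 4.20 ± 0.50 in IRF4 KO and 3.89 ± 0.26 in WT arteries. Of the 15 inward rectifier genes 13 had a positive change, with a median of 0.12, and 0 passed the test. Only 6 of the 15 lay above the olfactory receptor level.

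Two-pore domain channels carry the background leak of potassium. Kcnk6 read 6.76, 5.72 and 5.02 in IRF4 KO 1, 2 and 3, against 5.51, 5.39 and 6.37 in WT 1, 2 and 3. IRF4 KO 1 and WT 3 were the 2 highest arrays, as for Kcnn4 and for the mean of the macrophage markers, and the part of macrophages was not tested. The change was 0.078 (SE 0.44). Kcnk3, whose channel responds to acid and is known from pulmonary artery smooth muscle, read 4.29, 4.39 and 4.82 in IRF4 KO 1, 2 and 3, against 5.06, 4.56 and 5.20 in WT 1, 2 and 3. Its change of -0.44 (SE 0.24) was -0.91 between IRF4 KO 1 and WT 3 and -0.20 between the other arrays, and the 3 probe sets ranged from -0.44 to 0.33. Kcnk2, a stretch-sensitive channel gene, read between 1.85 and 2.57.

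The members were then compared between IRF4 KO 1 and WT 3 and the other 4 arrays. In 43 of 84 members (51.2%) both IRF4 KO 1 and WT 3 lay outside the range of the other 4 arrays on the same side, against 37.2% of all genes. They were lower in 37 members (44.0%, all genes 19.8%) and higher in 6 (7.14%, all genes 17.4%). Of the 37 lower members, 21 were among the 50 at or below the olfactory receptor level (42.0%, against 31.9% of all genes at such levels), and 16 among the 34 above it (47.1%, against 11.6%). Genes were not matched for brightness above that level, where only 19 of the 34 members exceeded the median of all genes, 4.89. The median of the olfactory receptor genes was itself lowest in these 2 arrays, at 2.69 in IRF4 KO 1 and 2.60 in WT 3, against 2.78 to 3.21 in the others, and its part in the counts was not tested. Kcnab1 differed most, by -1.40 between the mean of the 2 arrays and that of the other 4, followed by Kcnk6 (1.15), Kcnc4 (-1.10), Kcnn4 (0.95), Kcne4 (0.90), Kcnmb1 (-0.83), Kcnma1 (-0.81) and Kcnip4 (-0.73). No test was made of these differences, since the 2 arrays were set apart from the data. The macrophage list was 3.01 and the cartilage list 3.32 units higher in the 2 arrays and the smooth muscle list 0.36 lower, and the fibroblast list, 6 of 7 above the olfactory receptor level (not Clec3b), was 1.54 higher, and their part in the members' differences was not tested.

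**Figure D3:**
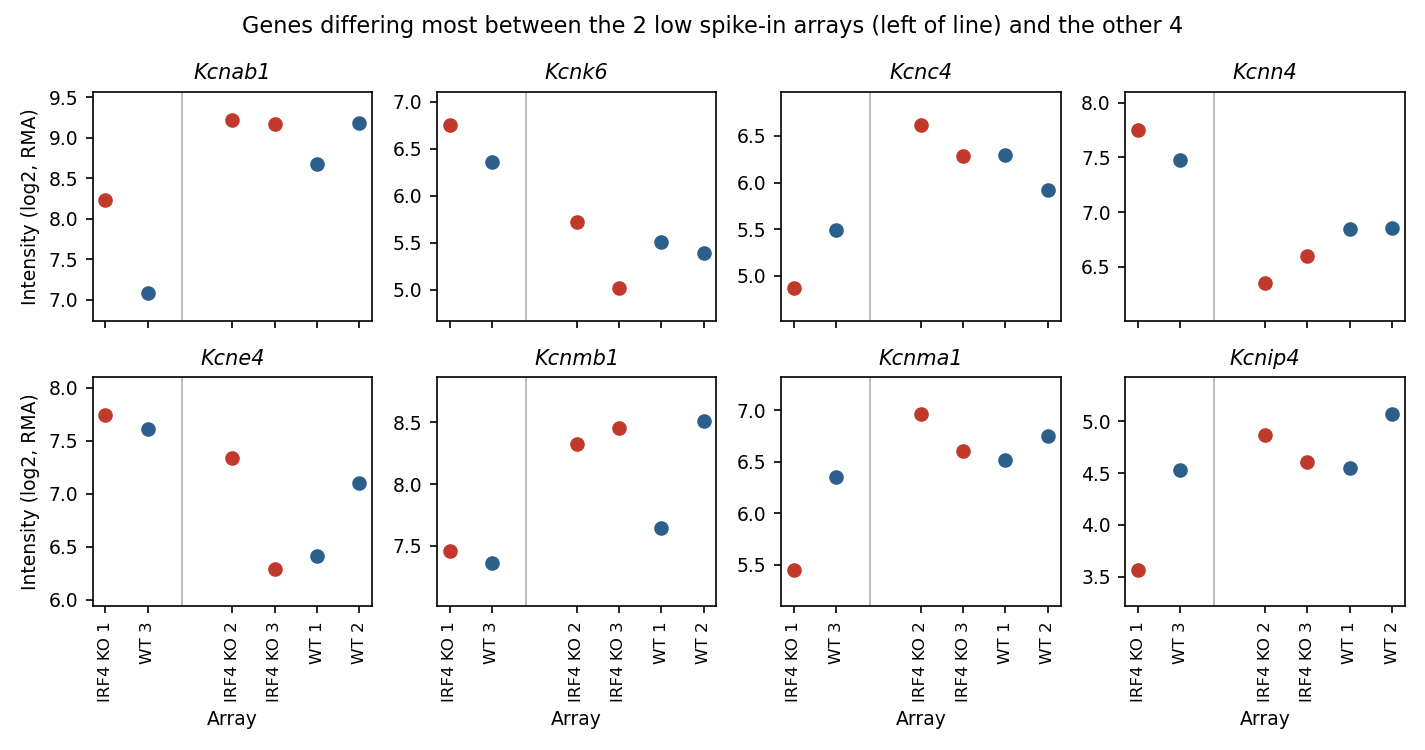
Log2 probe set intensity (y axis, own range in each panel, not starting at 0) in each array (x axis) of the 8 genes that differed most between the arrays with low spike-in controls, left of the grey line, and the other 4, right of it. Red points are IRF4 KO arrays and blue points WT arrays; Kcnk6, Kcnn4 and Kcne4 are higher left of the line and the other 5 genes lower.

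Since each set held both genotypes, the genotype difference was read within each. Among the 34 members above the olfactory receptor level, 19 had the same sign between IRF4 KO 1 and WT 3 as between the means of the other arrays. The share over all genes was not counted. Kcnd3 was lower and Kcnab1 higher in IRF4 KO within both sets. Their overall changes, the most negative and the most positive among the members, are made of these same differences. The shared direction is therefore no separate check of them. Blocked by the 2 sets, limma called 0 of 84 members and 0 of 18194 genes (0%). In that fit 3 members, Kcnd3, Kcnab1 and Kcnj15, had an unadjusted p under 0.05 (3.57% of members), a share close to that of all genes (3.68%). Over the 4 other arrays alone limma called 5 genes (0.0275%) and 0 members.

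**Figure D4:**
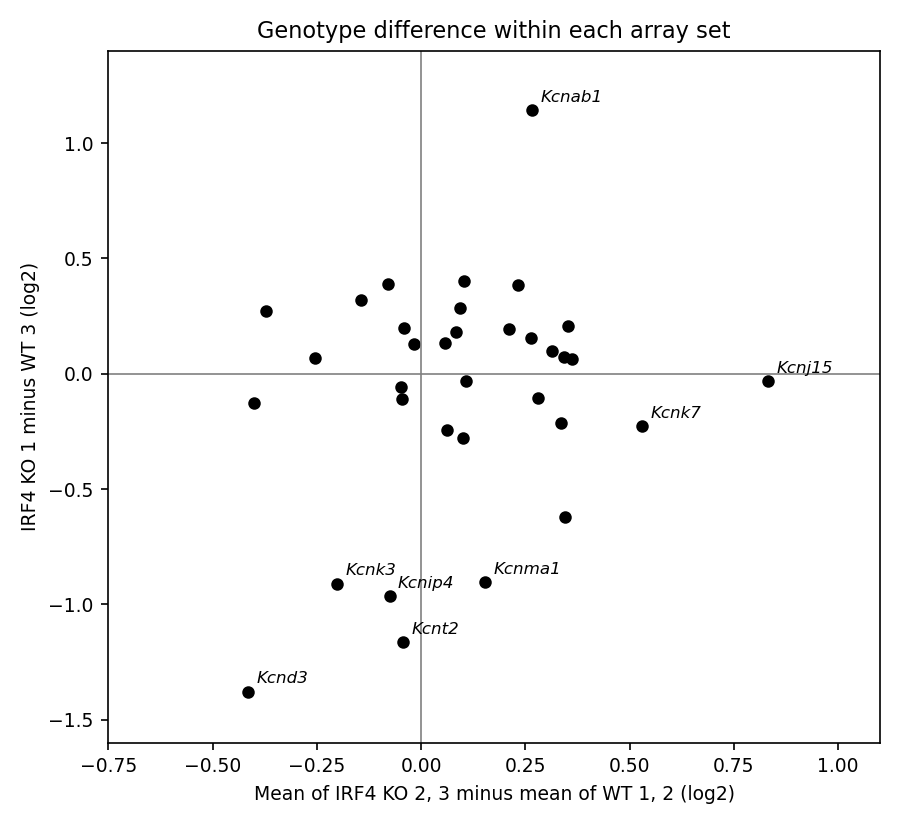
Log2 difference between IRF4 KO 1 and WT 3 (y axis) against the log2 difference between the means of IRF4 KO 2, 3 and WT 1, 2 (x axis), with 1 point for each of the 34 genes above the olfactory receptor level. Kcnd3 (-0.42, -1.38) lies lower left and Kcnab1 (0.27, 1.14) upper right, while Kcnj15 (0.83, -0.033) differs along the x axis only.

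The 50 members at or below the olfactory receptor level were set beside the arrays' dim signal. Their median was 3.01, 3.15 and 3.39 in IRF4 KO 1, 2 and 3, against 3.21, 3.07 and 3.08 in WT 1, 2 and 3. The olfactory receptor genes had medians of 2.69, 2.78 and 3.21 in IRF4 KO 1, 2 and 3 and of 3.06, 2.84 and 2.60 in WT 1, 2 and 3. Both were highest in IRF4 KO 3 and next in WT 1, and the olfactory receptor median was lowest in WT 3 and IRF4 KO 1. Hybridisation controls, added after labelling, were also highest in those arrays, at 10.99 in IRF4 KO 3 and 11.48 in WT 1, against 9.22 to 10.34 in the others. Some members above the olfactory receptor level, chosen here after their values were seen, followed a like order. Kcnh3 ranked all arrays as the olfactory receptor median did, and Kcna7 and Kcnj11 were also highest in IRF4 KO 3 and next in WT 1. The part of this signal in their values was not tested.

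In 3 of 84 members (3.57%) the genotypes did not overlap, against 5.68% of all genes. All 3 were higher in IRF4 KO (all genes 2.37%), 0 were lower (all genes 3.31%), and all 3 lay below the olfactory receptor level. Kcna4, a Kv1 pore gene, read 2.82, 2.81 and 2.71 in IRF4 KO arteries and 2.60, 2.47 and 2.60 in WT arteries. Kcng1, a silent Kv subunit gene, read 2.61, 2.60 and 2.76 in IRF4 KO arteries and 2.28, 2.38 and 2.46 in WT arteries, and the two-pore gene Kcnk13 read 3.77, 3.81 and 4.26 in IRF4 KO arteries and 3.72, 3.74 and 3.51 in WT arteries. Without IRF4 KO 1 there were 15 such members, against 20.2% of all genes. Over the 4 other arrays alone 16 members did not overlap, against 29.9% of all genes, and with dim genes left out 0 of 19 members, against 5.87%. With array medians subtracted there were 6 (all genes 6.5%), with quantile normalization 5 (all genes 7.33%) and with the mean of all probe sets 4 (all genes 5.73%). Other probe sets of the same genes gave differences of -0.19 for Kcna4, 0.020 for Kcng1 and -0.30 for Kcnk13.

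Over all 84 members 52 had a positive change and 32 a negative one, with a median of 0.046, against a median of -0.0015 and 49.7% positive over all genes. Without IRF4 KO 1 the split was 65 positive and 19 negative (median 0.13), and without WT 3 it was 41 positive and 43 negative (median -0.0027). Without WT 1 it was 62 positive and 22 negative (median 0.15), without IRF4 KO 3 42 of each (median 0.00024), without WT 2 49 positive and 35 negative (median 0.029). The median was 0.069 in the 34 brighter members, 22 of them positive, and 0.045 in the 50 dimmer ones, 30 of them positive. After subtraction of each array's median, 45 members were positive and the median was 0.011, against 42.9% positive and a median of -0.036 over all genes. By class, 12 of 22 voltage-gated pore genes were positive (median 0.017, 11 above the olfactory receptor level), as were 6 of 9 modifier subunits (median 0.12, 2 above) and 8 of 12 two-pore genes (median 0.11, 4 above). Of the 8 calcium-, sodium- or pH-gated pore genes 2 were positive (median -0.15, 3 above). Of the non-coding RNAs only Kcnq1ot1, transcribed antisense to Kcnq1, lay above that level, and it read 6.23, 6.09 and 5.66 in IRF4 KO arteries and 4.93, 6.14 and 6.45 in WT arteries. Only Kcnd3, Kcnab1 and Kcnj15, 3 members, had a difference of over 0.5 in size. Between arrays of one genotype the SD had a median of 0.304 over members and 0.287 over all genes. Of the 46 members with several probe sets, 23 had the same sign of change on all of them. Among the 10 members with several probe sets above the olfactory receptor level, all such probe sets shared a sign in 6.

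Genes that work with potassium channels were read from 4 lists. Of 12 measured subunits and regulators outside the Kcn symbols, 7 were higher and 5 lower in IRF4 KO, with a median change of 0.071, and 0 passed over all genes. Beside Dpp10, the smallest p values in that list were those of Lrrc52, a relative of the BK gamma subunit, at 0.32 (SE 0.18), and Amigo1, a partner of voltage-gated channels, at -0.44 (SE 0.25). Lrrc52 averaged 2.87 in IRF4 KO and 2.56 in WT arteries, below the olfactory receptor level. With the mean of all probe sets the changes were 0.080 for Lrrc52 and -0.10 for Amigo1. Of 19 calcium entry and release channels 0 passed, with 10 higher, 9 lower and a median of 0.0078. Cacna1c, the pore of the L-type calcium channel on which the potassium channels of smooth muscle act, read 4.89, 5.80 and 5.08 in IRF4 KO 1, 2 and 3, against 5.65, 5.65 and 6.37 in WT 1, 2 and 3. IRF4 KO 1 was lowest, and the change was -0.63 (SE 0.31). It was -1.48 between IRF4 KO 1 and WT 3 and -0.21 between the other arrays, and -0.91 to -0.39 with 1 array left out. Ryr2 and Cacnb2, which encode a calcium release channel and an L-type subunit, had differences of -0.51 and -0.26. Within the array sets Ryr2 gave -1.57 between IRF4 KO 1 and WT 3 and 0.015 between the other arrays, and Cacnb2 gave -0.66 and -0.053.

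Of 11 genes of cyclic nucleotide and kinase signalling 0 passed, with 5 higher, 6 lower and a median of -0.013. Prkg1, the cGMP-dependent kinase that opens BK channels, read 7.80, 8.02 and 7.65 in IRF4 KO 1, 2 and 3, against 8.04, 8.28 and 8.14 in WT 1, 2 and 3. All IRF4 KO arrays lay below all WT arrays, with a change of -0.33 (SE 0.19) and an adjusted p of 0.999. The difference was -0.39 for Pde5a, which degrades cGMP, and -0.41 for the natriuretic peptide receptor gene Npr1. Averaged over its 3 probe sets, Pde5a gave -0.16. Npr1 read 2.91 to 3.94 over all 6 arrays, below the olfactory receptor level, so its difference is given as a value only. For IRF4 KO 1 less WT 3 the Npr1 value was -1.03. In the remaining arrays it was -0.10. Of 6 genes of other ion transport 0 passed, with 4 higher, 2 lower and a median of 0.044. Changes were 0.40 for the sodium pump subunit Atp1b3, -0.26 for the chloride transporter Clcn3 and -0.23 for the cotransporter Slc12a2.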

How the data were processed

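The deposited table holds log2 probe set intensities of 45101 probe sets on 6 arrays. The authors made them with Affymetrix Expression Console and RMA, per the submitters' processing notes; no version or setting is named there. RMA pulls dim probe sets toward background, so changes of dim genes are understated. Array medians lay between 3.94 and 4.12. Probe sets with 1 annotated symbol (34958) entered, and each of 18194 genes was read on its brightest probe set, by mean of the 6 arrays. The RefSeq table (GRCm38.p6) changed 0 symbols.

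IRF4 KO was compared with WT by limma 3.58.1 in R 4.3.3 (lmFit, eBayes, two-sided, no covariate), adjusted by Benjamini-Hochberg over all genes, with a threshold of 0.05. The fit was tested on simulated data. Changes are IRF4 KO minus WT. An exact permutation test of 3 arrays against 3 cannot give a p below 0.1 and was not used. The number of arrays limits the precision.

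The members and lists were chosen with earlier results of these data known. The rule named Irf4, members known from arteries, the 12 brightest, the 10 with the smallest p, the 8 differing most between array sets, and 3 genes per partner list. Other genes are named to complete a family, mark a limit or account for a count, after their values were seen.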

Additional observations from a re-analysis of the deposited data

How the results depend on the processing

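The count of members called was 0 under all 15 alternatives. Kcnj15 came nearest, with an adjusted limma p of 0.0569 under array weights, against 0.999 with all arrays weighted equally. The count of all genes called was 0 except without WT 3 and IRF4 KO 1 together (5) and with array weights (68), whose estimation stopped before its tolerance was reached. The 3 members without overlap (all genes 5.68%) became 16 without WT 3 and IRF4 KO 1 together (all genes 29.9%). They were 6 with array medians subtracted (all genes 6.5%) and 5 with quantile normalization (all genes 7.33%). With dim genes left out they were 0 of the 19 members tested (all genes 5.87%). When 1 array was left out they were 4 to 15 (4.76% to 17.9% of members), against 11% to 20.2% of all genes. In each of these leave-one-out fits the share of members was below that of all genes. The median change of the members, 0.046 with all arrays, ranged from -0.0027 to 0.15 when 1 array was left out and was 0.10 with array weights, and 24 to 35 members lay above the olfactory receptor level. Replicate numbers did not pair the arrays: deviations from the genotype means correlated by -0.52, 0.37 and -0.62 in same-numbered arrays. The replicate block gave 0 calls. Its median of 0.046 could not differ from that with all arrays, since each block held 1 array of each genotype. Not every array correlated best with its own number. Of 682 values of the 47 named genes under the alternatives, 612 kept their direction and side of the threshold and 69 changed direction, none of them called. The replicate and spike-in blocks, an intensity trend in the error and leaving out dim genes do not alter a gene's fitted change. Values under these alternatives could not change direction, so the count of 612 overstates how stable directions were. Dpp10 passed with array weights (-1.41, adjusted p = 0.0186; 0.999 with all arrays weighted equally). For genes whose direction changed when 1 array was left out, the changes ranged as follows: Irf4 (-0.19 to 0.087), Kcnma1 (-0.51 to 0.25), Kcnmb2 (-0.097 to 0.23), Kcnmb4 (-0.24 to 0.13), Kcna3 (-0.29 to 0.20), Kcna5 (-0.21 to 0.057), Kcna6 (-0.014 to 0.34), Kcnab1 (-0.055 to 0.99), Kcnab2 (-0.00097 to 0.19), Kcnq1 (-0.10 to 0.078), Kcnq5 (-0.55 to 0.018), Kcne4 (-0.23 to 0.50), Kcnj8 (-0.18 to 0.10), Kcnn3 (-0.056 to 0.12), Kcnn4 (-0.58 to 0.11), Kcnk2 (-0.022 to 0.24), Kcnk6 (-0.38 to 0.48), Kcnh2 (-0.40 to 0.17), Kcnt2 (-0.75 to 0.0038), Kcnh3 (-0.17 to 0.20), Kcnc4 (-0.33 to 0.55), Kcnip4 (-0.63 to 0.019), Slc12a2 (-0.46 to 0.22). Directions also changed with array weights, Irf4 (0.11), Kcnma1 (0.27), Kcnmb4 (0.0044), Kcnab2 (-0.24), Kcnq1 (0.11), Kcnq5 (0.017), Kcnj8 (0.039), Kcnh2 (0.35), Kcnt2 (0.20), Kcnh3 (-0.11), Cacna1c (0.037), Ryr2 (0.20), Npr1 (0.056), Atp1b3 (-0.028), Clcn3 (0.084), Slc12a2 (0.047); without WT 3 and IRF4 KO 1 together, Kcnma1 (0.15), Kcnq1 (0.063), Kcnn3 (-0.0083), Kcnk6 (-0.079), Kcnh3 (-0.017), Ryr2 (0.015), Slc12a2 (0.052); with quantile normalization, Kcnj8 (0.021), Kcnn3 (-0.0082); with the mean of all probe sets, Kcnn4 (0.21), Kcnk13 (-0.0023), Cacnb2 (0.016); with array medians subtracted, Kcnh3 (-0.0041), Kcnc4 (-0.012). The cause was not tested.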
